A study of Homo sapiens with 6 samples.

Results

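The 37 RNAs encoded by the human mitochondrial genome were followed in HEK293T cells, a human embryonic kidney line, after light was used to release the dioxygenase hTET2 from a chemical cage. The members were the gene features whose symbol starts with MT-, namely 13 mRNAs, 2 rRNAs and 22 tRNAs, out of 60179 gene features in the table. All cells of the 3 groups were a transfected pool that carried the plasmids pShP2419 and pStH1169, had been fed a photocaged amino acid, 4,5-dimethoxy-2-nitrobenzyl-L-serine (0.1 mM), over 48 h, and were sorted by flow cytometry to 500000 cells a sample. The caged 0 h group received no light, and the uncaged 4 h and uncaged 8 h groups received 3 min at 365 nm and were harvested 4 h and 8 h later, with 2 libraries in each group. The series has no cells that were lit but lacked the enzyme, and the effects of light, of washing and new medium, of time in culture and of hTET2 cannot be told apart. Nothing in the labels says that replicates came from separate cultures, so a p-value here measures only how these libraries vary, which may be technical. In such bulk samples a smaller share of some cells and less RNA per cell cannot be told apart.

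Mitochondrial DNA is a small circle whose strands, called heavy and light, are each copied by the mitochondrial RNA polymerase POLRMT, with the factors TFAM and TFB2M, into long RNAs that are cut at the tRNAs they contain. The heavy-strand genes give both rRNAs, 12 mRNAs and 14 tRNAs, while the light-strand genes give 8 tRNAs and the mRNA MT-ND6 alone. The mRNAs code for core subunits of complexes I, III, IV and V of oxidative phosphorylation, and most of them carry a short poly(A) tail, which MT-ND6 is known to lack in human cells.

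The bases that open a light-strand and a heavy-strand mRNA show how different the strands are, which is why they are set side by side here with G in capitals. They come from GENCODE 29 transcripts (GRCh38) and are written 5′ to 3′ in the sense of the RNA. The MT-ND6 stretch lies at chrM:14614-14673 on the minus strand, that of MT-ND5, its neighbour on the other strand, at chrM:12337-12396 on the plus strand, and that of MT-CO1, the mRNA with the highest level, at chrM:5904-5963 on the plus strand.
MT-ND6: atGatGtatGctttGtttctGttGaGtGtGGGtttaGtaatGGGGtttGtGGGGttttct
MT-ND5: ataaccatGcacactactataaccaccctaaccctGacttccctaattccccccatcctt
MT-CO1: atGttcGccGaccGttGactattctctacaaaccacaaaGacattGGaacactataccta
Over its whole length of 525 bases, MT-ND6 held 35.6% G and 7.05% C. The 12 heavy-strand mRNAs held 6.28% to 16.2% G and 29.5% to 36.0% C. MT-ND6 was therefore the only mitochondrial mRNA of these 13 with more G than C.

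Of the tRNAs, 4 are shown whole, with the anticodon in capitals, because they mark the top and the bottom of the tRNA counts given below. MT-TS1, a serine tRNA at chrM:7446-7514, and MT-TA, the alanine tRNA at chrM:5587-5655, lie on the minus strand and had the highest counts. MT-TV, the valine tRNA at chrM:1602-1670, and MT-TD, the aspartate tRNA at chrM:7518-7585, lie on the plus strand and were among the lowest.
MT-TS1: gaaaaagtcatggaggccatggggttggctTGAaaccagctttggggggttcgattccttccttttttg
MT-TA: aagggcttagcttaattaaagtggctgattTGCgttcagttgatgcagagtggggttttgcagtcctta
MT-TV: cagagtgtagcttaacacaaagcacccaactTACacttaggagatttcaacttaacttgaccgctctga
MT-TD: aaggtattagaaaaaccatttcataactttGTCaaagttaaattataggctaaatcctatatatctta
The 8 light-strand tRNAs held 23.5% to 36.1% G, and the 14 heavy-strand tRNAs held 10.3% to 19.1%.

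Each library held between 17490010 and 20025955 estimated counts, of which 11.5% to 15.5% fell on plasmid features that were left out of the tests. The plasmid share was 11.5% and 11.8% in the caged libraries and 14.8% to 15.5% in the uncaged libraries. Counting plasmid features in the scaling was among the alternatives run, and any other part of this share in the results below was not tested. The 5 genes taken as marks of HEK293T cells were counted in every library. They ran from LHX1 at 2.36 to 4.58 CPM up to INA at 60.1 to 63.8 CPM. For all markers here, CPM are counts scaled only by the total gene counts of each library, without the TMM scaling used later. Of 6 markers of other cell types, ALB lay at 1.0 to 1.95, COL3A1 at 0.534 to 1.27 and PECAM1 at 0.0656 to 0.601 CPM, while PTPRC and HBB did not pass 0.0663 CPM and CD3E was at 0.

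Mitochondrial RNAs held a somewhat smaller share of each uncaged 4 h library than of the others. They made up 8.10% and 7.65% of the gene counts in the caged libraries, 6.80% and 6.98% in the uncaged 4 h libraries, and 7.70% and 7.59% in the uncaged 8 h libraries. The Wilson interval of each share, at a level of 0.95, was narrow (6.79% to 6.81% in uncaged 4 h replicate 1), and it covers counting error only. The 13 mRNAs alone took 6.95% and 6.53% in caged cells, 5.71% and 5.82% at 4 h after light and 6.06% and 6.04% at 8 h after light. For the mRNAs the caged libraries were thus the highest and the 4 h libraries the lowest, with no overlap between groups.

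Levels of the mRNAs are compared per kilobase of length, since a longer mRNA yields more fragments. From here on, CPM are counts scaled to a common library size by the TMM method of edgeR. In caged cells MT-CO1, the catalytic subunit of complex IV, had the highest level at 10987 ± 136 CPM per kb (SD, n = 2). MT-CO2, which takes electrons from cytochrome c, had 10024 ± 262 CPM per kb. MT-ATP6, the proton channel subunit of complex V, had 8888 ± 644 and MT-CO3 of complex IV had 8784 ± 167 CPM per kb. These last levels lay within the spread of MT-ATP6, so their order is not resolved.

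Among the subunits of complex I the levels in caged cells covered a wide range. MT-ND4, in the membrane arm that pumps protons, had 6730 ± 539 CPM per kb, and MT-ND1, next to the quinone site, had 4044 ± 204 CPM per kb. MT-ND3 had 3622 ± 87.8, MT-ND4L 3399 ± 284 and MT-ND2 2945 ± 116 CPM per kb. The MT-ND4L feature has 297 bases and overlaps that of MT-ND4 by 7 bases, so their levels may not be separate. How well dividing by length suits so short a feature was not tested. The 2 lowest mRNAs of all 13 were MT-ND6, at 1994 ± 364 CPM per kb, and MT-ND5, at 1560 ± 355 CPM per kb. Both were higher in caged replicate 1, so their spread is shared and does not measure the gap between them. MT-ND6 counts were 36.0% and 38.4% of MT-ND5 counts in the caged libraries, on 525 against 1812 bases. Per kb, MT-ND6 thus lay above MT-ND5 in each caged library. The light-strand mRNA thus lay in the range of a heavy-strand mRNA of the same complex in an mRNA-enriched library, though how far such enrichment kept MT-ND6 was not tested.

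Both rRNAs rose between 4 h and 8 h, and they went in opposite directions between caged cells and 4 h. MT-RNR1, the RNA of the small mitochondrial ribosomal subunit, had 4508 and 4788 CPM in caged cells, 5940 and 6367 CPM at 4 h after light and 9386 and 8775 CPM at 8 h after light. No group overlapped with another, and each later group lay above the one before. MT-RNR1 was higher by 0.40 ± 0.046 on the log2 scale (SE; edgeR adjusted p = 0.00322) at 4 h than in caged cells, and by 0.97 ± 0.046 (adjusted p = 8.65e-05) at 8 h, a 1.95-fold difference. It was also higher at 8 h than at 4 h, by 0.56 ± 0.046 (adjusted p = 0.00611). With libraries scaled by cyclic loess, a curve fitted against abundance, these differences shrank to 0.18, 0.54 and 0.36 and kept their calls. The 4 h call was lost in a test against a change of at least 1.2-fold (adjusted p = 0.0803).

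MT-RNR2, the RNA of the large mitochondrial ribosomal subunit, had 6057 and 5520 CPM in caged cells, 4456 and 4792 CPM at 4 h after light and 7088 and 6843 CPM at 8 h after light. It was thus lowest at 4 h and highest at 8 h, with no overlap between groups. It fell by 0.32 ± 0.049 (adjusted p = 0.0079) at 4 h relative to caged cells and rose by 0.59 ± 0.049 (adjusted p = 0.00611) at 8 h relative to 4 h. At 8 h against caged cells MT-RNR2 was higher by 0.27 ± 0.049 (adjusted p = 0.00617), a direction that turned to -0.15 with cyclic loess. That scaling gave MT-RNR2 -0.54 at 4 h, where the test against 1.2-fold lost the call (adjusted p = 0.426), and 0.39 between the uncaged groups.

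The ratio of the rRNAs, which no library scaling can alter, showed the split at 4 h. MT-RNR1 counts divided by MT-RNR2 counts came to 0.744 and 0.867 in caged cells, 1.33 and 1.33 at 4 h after light and 1.32 and 1.28 at 8 h after light. The caged libraries thus lay below all 4 uncaged ones. The log2 difference was 0.73 at 4 h and 0.70 at 8 h against caged cells, each with an exact permutation p of 0.333 (two-sided), which is the smallest that 2 against 2 libraries allow. Every MT-RNR1 estimate was a whole number to within 0.01 and no MT-RNR2 estimate was, so salmon shared some MT-RNR2 reads with other features. In an mRNA-enriched library, what rRNA counts say about rRNA in the cell was not tested.

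MT-ND6, a membrane subunit of complex I and the only mRNA of the light strand, was the mRNA with the largest fall 4 h after light, and it was back near its caged level at 8 h. It had 1182 and 911 CPM in caged cells, 574 and 642 CPM at 4 h after light and 928 and 907 CPM at 8 h after light. The 4 h libraries lay below all others, and the 8 h libraries lay close to the lower caged library. At 4 h MT-ND6 fell by 0.78 ± 0.11 on the log2 scale relative to caged cells (edgeR adjusted p = 0.00554), a 1.72-fold difference, and this call held in all 23 alternatives run, with adjusted p no higher than 0.0459.

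At 8 h MT-ND6 averaged 917 ± 14.6 CPM, against 1047 ± 191 CPM in caged cells (SD, n = 2 each), a log2 difference of -0.19 ± 0.11 (adjusted p = 0.21). That difference rested on caged replicate 1, without which it was 0.0063, while without caged replicate 2 it was -0.37 (adjusted p = 0.0158). Between the uncaged groups MT-ND6 was higher at 8 h than at 4 h by 0.59 ± 0.11 (adjusted p = 0.0337). The last call was lost on leaving out any of the 4 libraries compared, with adjusted p of 0.0872 to 0.173 and values of 0.51 to 0.68.

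Set against the heavy strand of the same library, MT-ND6 still fell at 4 h. Its counts came to 1.79% and 1.46% of the summed 12 heavy-strand mRNAs in caged cells, 1.01% and 1.11% at 4 h after light and 1.5% and 1.46% at 8 h after light. The 4 h libraries lay below all others, and the 8 h libraries lay close to caged replicate 2. The log2 ratio differed by -0.61 at 4 h against caged cells and by 0.48 at 8 h against 4 h (exact permutation p = 0.333 for each, two-sided, the smallest possible).

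Fitted in edgeR with the heavy-strand sum in place of the library size, MT-ND6 differed by -0.61 ± 0.091 (adjusted p = 0.00268) at 4 h against caged cells. The same fit gave 0.48 ± 0.091 (adjusted p = 0.025) at 8 h against 4 h. Between 8 h and caged cells it gave -0.14 ± 0.091 (adjusted p = 0.292). MT-ND6 was therefore past the threshold relative to the heavy-strand mRNAs at 4 h and in the step to 8 h, and not at 8 h against caged cells.

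This did not extend to the light strand as a whole. In the same fit at 4 h, of the 8 light-strand tRNAs only MT-TE passed, at -0.74 ± 0.15 (adjusted p = 0.00882), and the other 7 had values from -0.23 for MT-TS1 to 0.17 for MT-TA. Heavy-strand RNAs also moved relative to the sum of their mRNAs. Those mRNAs make up the sum, so any unlike change among them gives some a rise relative to it and others a fall. MT-RNR1 (0.57), MT-ND1 (0.37), MT-ND2 (0.21), MT-TG (1.85) and MT-TR (1.51) were higher, and MT-ND4 (-0.24), MT-RNR2 (-0.16) and MT-ATP6 (-0.15) lower, each with an adjusted p of at most 0.05.

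The gap between the strands was smaller when MT-ND6 was set against MT-ND5 alone, the heavy-strand mRNA that ends at the next base and whose RNA is known to run on opposite MT-ND6. MT-ND5, a proton-pumping subunit of complex I, had 3282 and 2373 CPM in caged cells, 2047 and 2126 CPM at 4 h after light and 2475 and 2358 CPM at 8 h after light. Caged replicate 1 stood apart, with MT-ND5 at 4.98% of the heavy-strand sum against 3.61% to 4.00% in the other 5 libraries. MT-ND5 differed by -0.44 ± 0.12 (adjusted p = 0.0553) at 4 h against caged cells and did not pass the test, though it did without caged replicate 2 (-0.65, adjusted p = 0.00375). MT-ND6 counts were 36.0% and 38.4% of MT-ND5 counts in caged cells, 28.1% and 30.2% at 4 h after light and 37.5% and 38.5% at 8 h after light, again lowest in both 4 h libraries. The log2 difference of this ratio was -0.35 at 4 h against caged cells (exact permutation p = 0.333, two-sided). The strand setting of the counting was not given in the sources used here, so reads of MT-ND6 and of RNA from the opposite strand cannot be told apart.

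**Figure D1:**
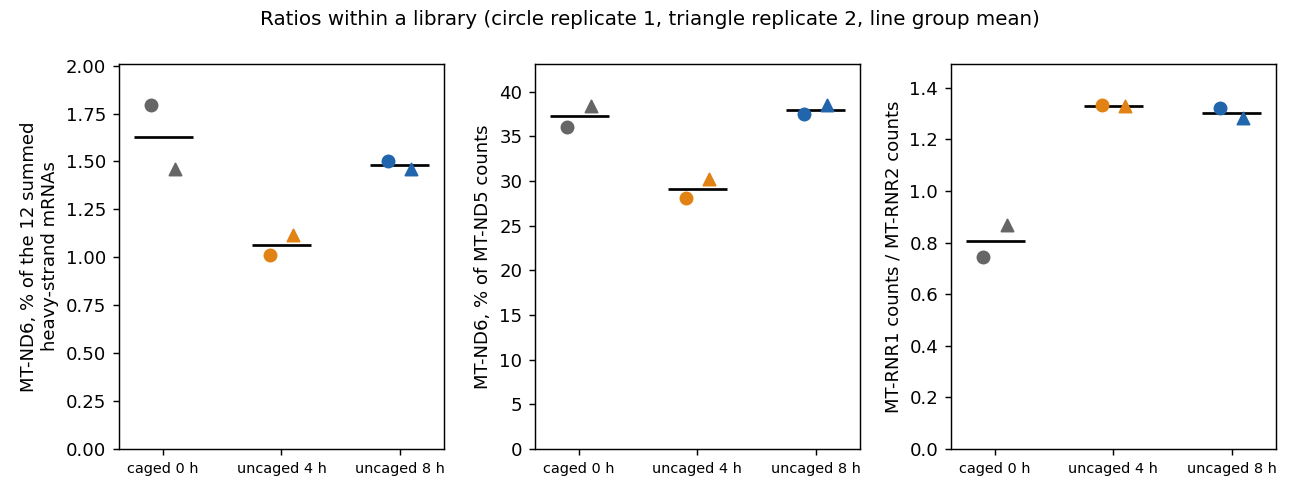
Ratios within each library, with points for libraries and lines for group means: MT-ND6 as a percentage of the summed heavy-strand mRNAs, MT-ND6 as a percentage of MT-ND5, and MT-RNR1 counts divided by MT-RNR2 counts, each axis starting at 0. Both MT-ND6 ratios are lowest in the 4 h libraries (1.01% and 1.11%, 28.1% and 30.2%), and the rRNA ratio is 0.744 and 0.867 in caged libraries and 1.28 to 1.33 in uncaged ones.

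MT-TE, the glutamate tRNA that directly adjoins MT-ND6 on the same strand at chrM:14674-14742, moved in the same direction at 4 h. It had 14.7 and 11.4 CPM in caged cells, 6.44 and 7.49 CPM at 4 h after light and 8.51 and 9.24 CPM at 8 h after light, on 98 to 269 counts a library, so both uncaged groups lay below the caged one. At 4 h MT-TE fell by 0.91 ± 0.16 (adjusted p = 0.0129) relative to caged cells, and at 8 h by 0.56 ± 0.16 (adjusted p = 0.0296). Its step between 4 h and 8 h did not pass the test. The 4 h call was lost without caged replicate 1 (adjusted p = 0.0711), uncaged 4 h replicate 1 (0.0799) or uncaged 4 h replicate 2 (0.065), and the 8 h call without caged replicate 1 (0.18), uncaged 8 h replicate 1 (0.115) or uncaged 8 h replicate 2 (0.0679).

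At 4 h against caged cells, 3 of the 36 members tested were higher and 8 were lower at an adjusted p of at most 0.05. Among all 17449 features tested, 6.16% were higher and 3.56% lower, 9.72% in all. The share of members that were lower thus lay above the background share, while the share higher lay near it. The median log2 difference was -0.12 over the members, -0.20 over the 13 mRNAs and -0.0061 over all features. The 2 groups did not overlap for 22 members, 6 of them higher and 16 lower, where 28.6% and 28.3% of all features did so in these directions, 56.9% in all. MT-TV, with 3 to 12 counts a library, was not tested. Left out one at a time, the libraries gave between 4 and 13 members called, the lowest without uncaged 4 h replicate 2, and 7 without either caged replicate 2 or uncaged 4 h replicate 1. With cyclic loess scaling 2 members were higher and 15 lower, and with library totals alone 2 were higher and 11 lower. Cyclic loess moved the median of the 13 mRNAs to -0.43 at 4 h and -0.42 at 8 h against caged cells, and to 0.026 between the uncaged groups.

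Within complex I at 4 h, heavy-strand subunits went in opposite directions, except with cyclic loess. MT-ND4 had 7423 and 6598 CPM at 4 h, against 9800 and 8749 CPM in caged libraries, with no overlap. It fell by 0.40 ± 0.064 (adjusted p = 0.00898), a call lost without uncaged 4 h replicate 2 (adjusted p = 0.0592). MT-ND1 had 4288 and 4618 CPM at 4 h, against 4004 and 3727 CPM in caged libraries, so it lay higher in both 4 h libraries. It rose by 0.20 ± 0.046 (adjusted p = 0.0307), but not without caged replicate 2 (adjusted p = 0.152) or uncaged 4 h replicate 2 (0.194), and with cyclic loess the value was -0.01. MT-ND4L, whose reading frame overlaps that of MT-ND4 by 7 bases, had 880 and 804 CPM at 4 h, against 1069 and 950 CPM in caged libraries. Its difference of -0.26 ± 0.070 missed the threshold (adjusted p = 0.051). MT-ND2 had 3211 and 3099 CPM at 4 h, against 3154 and 2984 CPM in caged libraries, and MT-ND3 had 1204 and 1207 against 1275 and 1232 CPM, and neither passed the test.

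The complex V mRNAs fell together at 4 h. MT-ATP6 had 4977 and 4720 CPM at 4 h, against 6363 and 5743 CPM in caged libraries, and fell by 0.32 ± 0.047 (adjusted p = 0.00696). MT-ATP8, a small subunit of the stator, had 943 and 933 CPM at 4 h, against 1162 and 1160 CPM in caged libraries, and fell by 0.31 ± 0.052 (adjusted p = 0.0111). Neither pair of groups overlapped. The MT-ATP6 call was lost without uncaged 4 h replicate 2 (adjusted p = 0.0608), and that of MT-ATP8 on leaving out any of the 4 libraries compared (0.0581 to 0.0828). The frames of these genes share 46 bases (chrM:8527-8572) and lie on a common RNA, so their values are not independent.

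Among the complex IV mRNAs, MT-CO1 fell at 4 h and the others did not pass the test. MT-CO1 had 14178 and 15241 CPM at 4 h, against 16793 and 17090 CPM in caged libraries, and fell by 0.20 ± 0.032 (adjusted p = 0.00911), a call lost without caged replicate 2 (adjusted p = 0.0614). MT-CO2 had 6474 and 6221 CPM at 4 h, against 6983 and 6729 CPM in caged libraries, and differed by -0.11 ± 0.030 (adjusted p = 0.0526). MT-CO3 had 6551 and 7077 CPM at 4 h, against 6979 and 6794 CPM in caged libraries, which overlapped. MT-CYB, the cytochrome b of complex III, overlapped too, with 4528 and 4930 CPM at 4 h, against 5051 and 4797 CPM in caged libraries. Summed, the 12 heavy-strand mRNAs came to 56704 and 57574 CPM at 4 h, against 65914 and 62328 CPM in caged libraries, a log2 difference of -0.17 (exact permutation p = 0.333, two-sided, the smallest possible).

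Relative to caged cells, 4 of the 36 members tested were higher at 8 h and 3 lower, where 14.9% of all features were higher and 13.2% lower, 28.1% in all. The share of members called thus lay below the background share. The medians were -0.029 over the members and -0.0046 over all features. The 4 members that rose were the first 4 mRNA and rRNA genes in genome order, namely MT-RNR1, MT-RNR2, MT-ND1 and MT-ND2, and the next 2, MT-CO1 and MT-CO2, fell. Groups did not overlap for 16 members, 6 higher and 10 lower, where 32.6% and 33.6% of all features did so, 66.2% in all. The count was 11 without caged replicate 2. With cyclic loess 1 member was higher and 12 lower, with library totals 4 and 7, and with upper-quartile factors 4 and 5.

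MT-ND1 had 5300 and 5505 CPM at 8 h, against 4004 and 3727 CPM in caged libraries, and rose by 0.48 ± 0.046 (edgeR adjusted p = 0.000512), a call lost only with cyclic loess (0.077, adjusted p = 0.307). MT-ND2 had 3747 and 3657 CPM at 8 h, against 3154 and 2984 CPM in caged libraries, and rose by 0.27 ± 0.036 (adjusted p = 0.0019), though with cyclic loess it was -0.12. Neither gene's groups overlapped. MT-CO1 had 14909 and 15086 CPM at 8 h, against 16793 and 17090 CPM in caged libraries, and fell by 0.18 ± 0.032 (adjusted p = 0.00605). MT-CO2 had 6277 and 6329 CPM at 8 h, against 6983 and 6729 CPM in caged libraries, and fell by 0.12 ± 0.030 (adjusted p = 0.0188), but not without caged replicate 1 (adjusted p = 0.0912), uncaged 8 h replicate 1 (0.0793) or uncaged 8 h replicate 2 (0.0625).

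The remaining heavy-strand mRNAs did not pass the test at 8 h against caged cells. MT-ND4 had 8062 and 8446 CPM, against 9800 and 8749 CPM in caged libraries, and MT-ATP6 had 5606 and 5564 CPM, against 6363 and 5743 CPM, so both lay lower without overlap. MT-CO3 had 7129 and 6683 CPM at 8 h, against 6979 and 6794 CPM in caged libraries. MT-CYB had 5063 and 5236 CPM at 8 h, against 5051 and 4797 CPM in caged libraries. MT-CO3 overlapped, while both MT-CYB libraries at 8 h lay above the caged ones. MT-ND4L had 916 and 996 CPM at 8 h, against 1069 and 950 CPM in caged libraries, which overlapped. MT-ND5 differed by -0.23 ± 0.12 (adjusted p = 0.189) at 8 h, with a call without caged replicate 2 (-0.44, adjusted p = 0.0035) and a value of 0.023 without caged replicate 1. The heavy-strand sum was 61831 and 62144 CPM at 8 h, against 65914 and 62328 CPM in caged libraries, a log2 difference of -0.048 (exact permutation p = 0.333, two-sided).

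Between the uncaged groups every call was a rise, except with cyclic loess, which gave 2 rises and 2 falls. Of the 36 members tested, 6 were higher at 8 h than at 4 h and none lower, where 2.05% of all features were higher and 1.21% lower, 3.27% in all. The median was 0.11 over the members and -0.0034 over all features. Groups did not overlap for 24 members, 19 higher and 5 lower, where 26.1% and 27.2% of all features did so, 53.3% in all. The 6 were MT-RNR1, MT-RNR2, MT-ND6, MT-ND1, MT-ND2 and MT-ATP8, of which the rRNAs kept their calls in all 22 alternatives run and the other 4 did not. Leaving out any of the 4 libraries compared left 2 or 3 members called.

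MT-ND1 had 5300 and 5505 CPM at 8 h, against 4288 and 4618 CPM at 4 h, and rose by 0.28 ± 0.046 (adjusted p = 0.0281). MT-ND2 had 3747 and 3657 CPM at 8 h, against 3211 and 3099 CPM at 4 h, and rose by 0.23 ± 0.036 (adjusted p = 0.0257). Both calls were lost on leaving out any of the 4 libraries compared, with adjusted p of 0.056 to 0.15 for MT-ND1 and 0.0764 to 0.141 for MT-ND2. MT-ATP8 had 1188 and 1064 CPM at 8 h, against 943 and 933 CPM at 4 h, and rose by 0.26 ± 0.052 (adjusted p = 0.0393), a call lost on leaving out any library other than uncaged 8 h replicate 2 (0.0617 to 0.171). MT-ATP6 had 5606 and 5564 CPM at 8 h, against 4977 and 4720 CPM at 4 h, and its difference of 0.20 ± 0.047 missed the threshold (adjusted p = 0.0567). MT-CO1 overlapped between these groups, with 14909 and 15086 CPM at 8 h, against 14178 and 15241 CPM at 4 h.

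**Figure D2:**
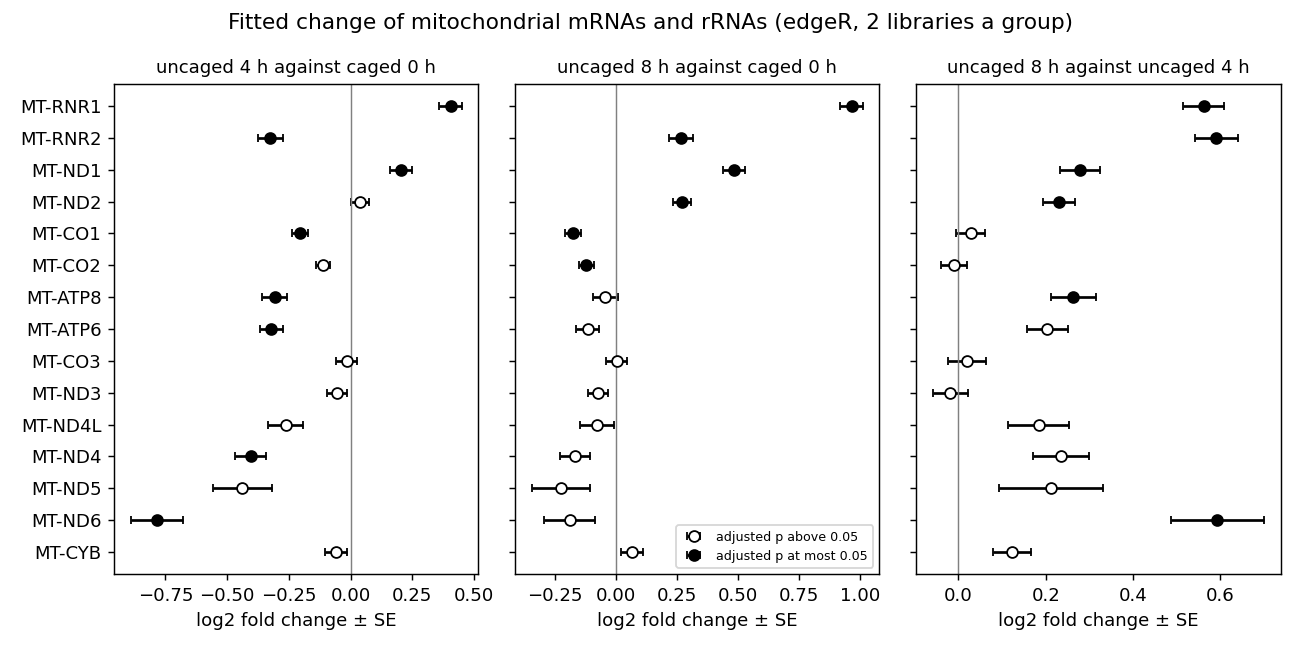
Fitted log2 fold change with its SE (edgeR, 2 libraries a group) of each mitochondrial mRNA and rRNA, in genome order from top to bottom, for uncaged 4 h against caged 0 h, uncaged 8 h against caged 0 h and uncaged 8 h against uncaged 4 h. Filled points passed an adjusted p of 0.05: 8 of these 15 genes in the left panel, 6 in the middle panel and 6 in the right panel, with MT-ND6 at -0.78, -0.19 and 0.59.

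All 22 tRNAs had counts in every library, although the libraries were enriched for mRNA. Together they held 6721 to 9376 counts a library, 0.591% to 0.702% of the mitochondrial counts. The 8 light-strand tRNAs took 89.8% to 92.7% of these. MT-TS1 held 1634 to 2728 counts, MT-TA 1492 to 2101, and MT-TN, the asparagine tRNA, 1200 to 1574. MT-TC for cysteine and MT-TY for tyrosine followed at 556 to 806 and 562 to 834 counts, then MT-TP for proline at 200 to 354 and MT-TQ for glutamine at 105 to 152.

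The 14 heavy-strand tRNAs held 613 to 908 counts a library between them. MT-TL1, a leucine tRNA next to MT-RNR2, led with 198 to 301 counts, followed by MT-TI for isoleucine with 102 to 196 and MT-TF for phenylalanine with 54 to 96. The other 11 did not pass 77 counts in any library, and MT-TV, which lies between the rRNAs, had the fewest, at 3 to 12. MT-TD, at 13 to 20 counts, lies 3 bases from MT-TS1 on the other strand. The light-strand tRNAs MT-TA, MT-TN, MT-TC and MT-TY lie opposite the RNA between MT-ND2 and MT-CO1, and MT-TS1 adjoins the last base of MT-CO1. Without a stated strand setting, reads of these tRNAs and of opposite-strand RNA cannot be told apart.

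**Figure D3:**
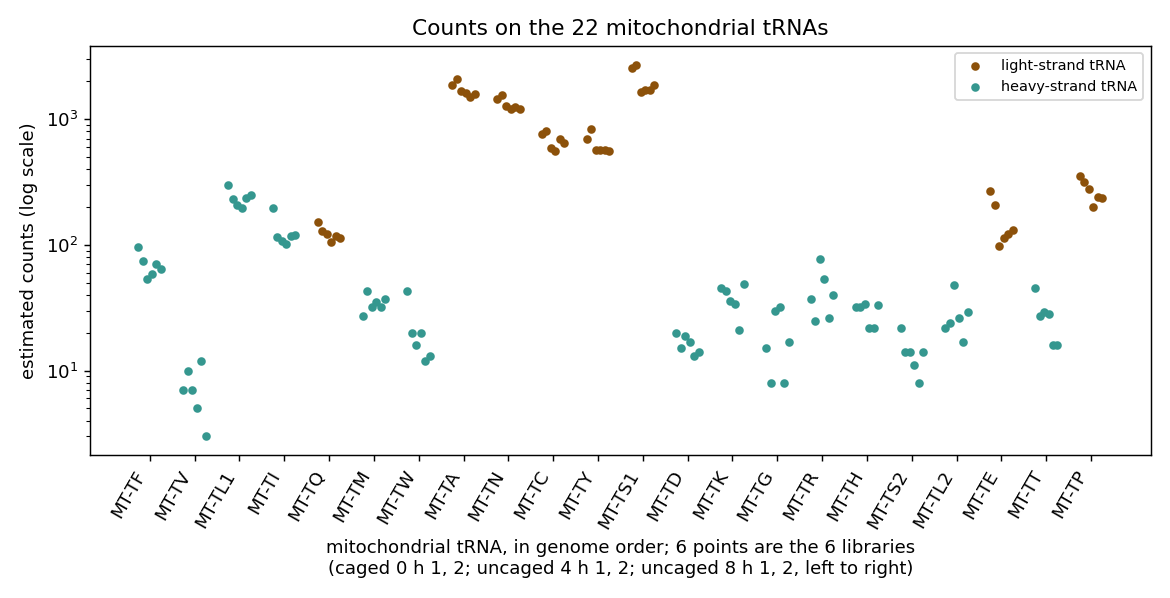
Estimated counts (log axis) of the 22 mitochondrial tRNAs in genome order, with 6 points a tRNA for the 6 libraries in the order caged 0 h, uncaged 4 h and uncaged 8 h, brown for light-strand and teal for heavy-strand tRNAs. All brown tRNAs lie at 98 counts or more, and all teal tRNAs other than MT-TL1, MT-TI and MT-TF lie at 77 counts or fewer.

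Of the 21 tRNAs tested, 3 passed the test at 4 h against caged cells, 1 at 8 h against caged cells and 0 at 8 h against 4 h, where 9.72%, 28.1% and 3.27% of all features did. Groups did not overlap for 10, 6 and 13 tRNAs in these comparisons, where they did not for 56.9%, 66.2% and 53.3% of all features. Beside MT-TE, MT-TS1 fell at 4 h, with 1634 and 1708 counts at 4 h and 2545 and 2728 in caged libraries, by 0.40 ± 0.072 after scaling (adjusted p = 0.0145). MT-TS1 lies opposite the RNA downstream of MT-CO1, which fell by 0.20 in the same comparison. Its call was lost without caged replicate 2 (adjusted p = 0.0931), uncaged 4 h replicate 1 (0.0967) or uncaged 4 h replicate 2 (0.0778), and at 8 h against caged cells it missed the threshold at -0.21 ± 0.072 (adjusted p = 0.0571).

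MT-TR, the arginine tRNA between MT-ND3 and MT-ND4L, had 77 and 54 counts at 4 h, against 37 and 25 in caged libraries. It rose by 1.34 ± 0.32 (adjusted p = 0.0354), but the call was lost on leaving out any of the 4 libraries compared (0.0774 to 0.177) and with DESeq2 (0.0574). MT-TG, the glycine tRNA before MT-ND3, had 30 and 32 counts at 4 h, against 15 and 8 in caged libraries, a difference of 1.68 ± 0.45 that missed the threshold (adjusted p = 0.0527). The tRNA that passed at 8 h against caged cells was MT-TE.

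Copies of mitochondrial genes in nuclear chromosomes could take reads from the members, so their counts are given. Of 404 such features, 291 were at 0 in all 6 libraries and 5 reached 1000 counts in every library. Together they held 16730 to 23525 counts a library, equal to 1.53% to 1.67% of the mitochondrial counts, namely 1.64% in both caged libraries, 1.67% and 1.59% in the 4 h ones and 1.53% and 1.54% in the 8 h ones. The largest was MTATP6P1, with 7352 to 10734 counts. The estimates of all 22 tRNAs, MT-RNR1, MT-ND3 and MT-ND4L were whole numbers in every library to within 0.01, while those of MT-RNR2 and of the other mRNAs except MT-ND1 were whole in none. Reads on the MT-RNR2 and most mRNA features were thus shared out between similar or overlapping transcripts, and those levels are uncertain to that extent.

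A list of 61 nuclear genes covered mitochondrial transcription, RNA processing and modification, ribosome assembly and the upkeep of mitochondrial DNA. More of them rose than fell at both times, except at 4 h with library totals as the scale, where 4 rose and 4 fell. At 4 h against caged cells, 10 rose and 2 fell, where 6.16% and 3.56% of all features did so. TWNK, the mitochondrial DNA helicase, was at 73.0 ± 2.17 CPM at 4 h, against 47.6 ± 0.946 CPM in caged cells (SD, n = 2 each), and rose by 0.62 ± 0.065 (adjusted p = 0.00243), a call kept in all 22 alternatives. On leaving out any of the 4 libraries compared, the count was 1 or 2. With cyclic loess 4 rose and 1 fell.

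Relative to caged cells, 25 of these 61 genes rose at 8 h and 8 fell, where 14.9% and 13.2% of all features did so. SUPV3L1, a helicase of the complex that degrades mitochondrial RNA, was at 176 ± 3.17 CPM at 8 h, against 122.9 ± 8.22 CPM in caged cells, and rose by 0.51 ± 0.061 (adjusted p = 0.0012). TFAM, which packages mitochondrial DNA and starts transcription, was at 210.4 ± 6.67 CPM at 8 h, against 157.0 ± 12.1 CPM in caged cells, and rose by 0.42 ± 0.065 (adjusted p = 0.0032). TWNK rose by 0.69 ± 0.065 and DDX28, an RNA helicase of the mitochondrial ribosome, by 0.72 ± 0.079. NSUN3, which modifies the methionine tRNA, rose by 0.56 ± 0.078 (adjusted p no higher than 0.0022 for each of these genes). Among genes named whatever their result, MTPAP, TFB2M and PNPT1 rose by 0.27, 0.46 and 0.26 (adjusted p = 0.0328, 0.0382 and 0.0395), calls lost under some alternatives. LRPPRC, SLIRP, GRSF1, FASTK and TEFM did not pass the test (adjusted p from 0.191 to 0.944). POLRMT itself was at 96.1 ± 3.85 CPM at 8 h, against 110.7 ± 2.57 CPM in caged cells, and fell by 0.20 ± 0.060 (adjusted p = 0.0361), a call lost on leaving out any of the 6 libraries (0.0575 to 0.159). Leaving out a library gave 17 to 24 calls, and with library totals 12 rose and 10 fell.

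At 8 h against 4 h, MGME1, a nuclease of mitochondrial DNA, and REXO2, an exonuclease that clears short RNAs, were the 2 genes of this list that rose, by 0.25 ± 0.051 and 0.31 ± 0.066 (adjusted p = 0.0425 and 0.0481). These 2 are 3.28% of the list, where 3.27% of all features were called, and no call of the list was left after leaving out any of the 6 libraries. A further list held nuclear genes of oxidative phosphorylation taken by symbol, mostly subunits of the same complexes but with complex II included. These genes, 80 of 83 tested, showed 1 rise at 4 h and 16 at 8 h against caged cells. At 8 h against 4 h they showed 4 rises, and there was no fall in any comparison. Of all features 6.16%, 14.9% and 2.05% rose in these comparisons, so the 1 rise of 80 lay below that share, and the 16 (20%) and the 4 (5%) lay somewhat above it. Their medians were 0.0029, 0.070 and 0.077. With library totals 5 rose and 4 fell at 8 h against caged cells, with cyclic loess 7 rose and 4 fell, and leaving out a library gave 5 to 13 calls. The calls at 4 h and between the uncaged groups were lost on leaving out any of the 6 libraries. With library totals the median of all features at 8 h against caged cells also moved, to -0.11.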

How the data were processed

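Estimated counts per gene feature were deposited by the authors as a table made with Salmon 1.1.0 on GRCh38, per the submitters' processing notes, which also name R 3.6.1 and DESeq2; the annotation release and strand setting were not given in the sources used here. Per the labels' protocols, RNA was enriched for mRNA. The deposited table pairs no names with its IDs, so symbols came from a name table. Coordinates, strands, lengths and sequences came from GENCODE 29, whose versioned IDs matched for all 37 members.

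Estimated counts were rounded. Plasmid features were left out, features were filtered (minimum count 10, minimum total 15), and 17449 were fitted over all 6 libraries with edgeR 4.0.16 in R 4.3.3 (TMM, quasi-likelihood test, no covariates). Adjusted p-values are Benjamini-Hochberg values over all features tested, at a threshold of 0.05. SE is the log2 fold change divided by the square root of F. The biological coefficient of variation was 6.34%. Replicates differed beyond counting noise (chi-square per degree of freedom 3.57 to 4.21), so none was a mere copy of another. This cannot tell separate cultures from separate preparations of the same culture. The fit was tested on simulated data. Ratios were compared by exact permutation over libraries.

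All members could be named. Nuclear genes named were 11 fixed ones and the 4 further called genes of their list with the smallest p in each comparison, of which some are given here. Alternatives were other scalings (RLE, upper quartile, library totals, cyclic loess, members left out, plasmids counted), DESeq2 1.42.0, limma-voom (limma 3.58.1), a test against a 1.2-fold change, other filters, a replicate block, unrounded estimates, 4 libraries alone, robust and newer dispersion settings, and leaving out each library. Those on the nuclear lists and the leave-one-out values of MT-ND6 to MT-ND5 and MT-RNR1 to MT-RNR2 were added after seeing the data. The members and lists were chosen with earlier results of these data known.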

Additional observations from a re-analysis of the deposited data

Results flagged for a closer look

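The step from 4 h to 8 h after light, which compares the 2 uncaged groups directly, passed the test for 6 members, so their difference from caged cells changed between the times. MT-RNR1 was higher at 8 h than at 4 h by 0.56 on the log2 scale, and MT-RNR2 by 0.59. MT-RNR2 lay below caged cells at 4 h and above them at 8 h, whereas MT-RNR1 lay above them at both. MT-ND6 differed by 0.59 in this step, MT-ND1 by 0.28, MT-ND2 by 0.23 and MT-ATP8 by 0.26. The calls of the rRNAs held without each library in turn, and those of the other 4 did not.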

How the results depend on the processing

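MT-ND6 at 4 h against caged cells, MT-RNR1 at 8 h against caged cells, and both rRNAs at 8 h against 4 h kept their direction and call under every alternative run. The number of members called left the range of 1.5 times its value under several settings. With a test against a 1.2-fold change it was 1 at 4 h, 2 at 8 h against caged cells and 2 at 8 h against 4 h. With cyclic loess it was 17 at 4 h and 13 at 8 h against caged cells. With library totals it was 11 at 8 h against caged cells. At 8 h against 4 h the number was 2 without the low-count filter, and it also left the range with a replicate block (given below). Without each library in turn it was 4 to 13, 5 to 11 and 2 to 7. MT-ND6 at 8 h against 4 h lost its call with cyclic loess (0.47), the 1.2-fold test (0.59), no filter (0.59) and robust=TRUE (0.59); at 8 h against caged cells cyclic loess gave it a call (-0.49). Cyclic loess also turned the heavy-strand sum at 8 h against 4 h to -0.084, MT-ND1 at 4 h to -0.013, and at 8 h MT-ND2 to -0.12 and MT-RNR2 to -0.15; the cause was not tested. Without each library in turn MT-ND6 ranged from -0.96 to -0.58, from -0.37 to 0.0063 and from 0.51 to 0.68 in the 3 comparisons, and its log2 ratio to the heavy-strand sum from -0.75 to -0.46, from -0.28 to 0.017 and from 0.41 to 0.55. The heavy-strand sum ranged from -0.21 to -0.13, from -0.089 to -0.0079 and from 0.11 to 0.13. At 8 h against caged cells MT-ND5 ranged from -0.44 to 0.023 and the log2 ratio of MT-ND6 to MT-ND5 from -0.017 to 0.076, and each changed sign without caged replicate 1, as did MT-ND6 and its ratio to the heavy-strand sum. Leaving 1 library in a group assumes that it varies like the other groups.

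Same-numbered libraries did not deviate together over all features tested (correlations of deviations -0.031, 0.075 and -0.10). This check gives features of low count equal weight, so a small shared effect could go unseen. A replicate block gave 9, 7 and 3 members called, and MT-ND6 at 8 h against 4 h was 0.59 with adjusted p = 0.0624. Of 108 pairs of a tested member and a comparison, 75 had an adjusted p above 0.06 and were not of MT-ND5 or MT-ND6. Of these, 40 changed sign and 11 reached a call under some alternative, so the text gives no TMM-scaled fold change for the 75. The plot of log2 fold changes by gene shows all mRNAs and rRNAs, whatever their adjusted p. Depth limits the heavy-strand tRNAs most, at 3 to 301 counts each.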
